A study of Arabidopsis thaliana with 29 samples.

Results

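The genes described here are 6 transcription factor genes that give petals and flower meristems their identity in *Arabidopsis thaliana*: *AP3* (AT3G54340), *PI* (AT5G20240), *AP1* (AT1G69120), *CAL* (AT1G26310), *FUL* (AT5G60910) and *LFY* (AT5G61850). They were chosen by name from the 33602 genes in the count files, with earlier results of these data known. Their transcripts were measured in 14 RNA-seq libraries of 2-week-old plants, and the repressive histone mark H3K27me3 over them in 10 lists of ChIP-seq peaks. The question behind the series is which Polycomb group (PcG) proteins keep developmental genes silent in seedlings, so each mutant was set against the wild type Col-0.

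All plants were of the Col ecotype. The mutants were *clf-29* and a line labelled *swn*, each named for a mutation in 1 of 2 genes for related H3K27 methyltransferases of Polycomb repressive complex 2 (PRC2), and the double mutant *clf-29swn-21*. *tfl2-2* and *lhp1-6* are 2 alleles of *LHP1*, whose protein binds H3K27me3, and were treated as 1 group, the LHP1 mutants. *atbmi1a,b* and *atring1a,b* each carry mutations in both genes of a pair that encodes RING finger proteins of PRC1. Every group had 2 RNA-seq libraries, and Col-0, *clf-29*, the LHP1 mutants, *atbmi1a,b* and *atring1a,b* also had 2 peak lists each. Only the double mutant was raised on culture medium, according to the Methods, and there whole seedlings were taken, whereas soil was used for the other genotypes. Its labels, like all others, state that roots were left out. A growth temperature of 21 °C is labelled for both LHP1 mutant RNA libraries and for the first library of the other groups except *swn*, and 22 °C for the remaining ones. The Methods give 22 °C and do not mention 21 °C.

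H3K27me3 is placed by PRC2 on nucleosomes of genes that are silent in a tissue, and in seedlings many floral regulators carry it. *LFY*, a plant-specific transcription factor, and the MADS box genes *AP1*, *CAL* and *FUL* turn a shoot meristem into a flower meristem, and LFY protein is known to bind the *AP1* promoter. *AP3* and *PI* are the B class MADS box genes, whose proteins act as a pair to specify petals and stamens, and each maintains the transcription of the other in the flower.

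The total of gene counts per library ran from 17277027 to 36205758, so 3 counts correspond to 0.0829 to 0.174 CPM. CPM are counts per 1000000 gene counts of a library, and intervals on them cover counting error only. *CLF* was at 37.4 and 27.8 CPM in Col-0 and at 0.689 and 0.434 CPM in *clf-29*, and *LHP1* was at 0 in *tfl2-2* and at 1.71 CPM in *lhp1-6*. *SWN* was not lower in the libraries labelled *swn*, at 88.2 and 87.2 CPM against 46.8 and 68.2 in Col-0, *AtBMI1A* was not lower in *atbmi1a,b*, and *AtRING1A* was at 631 and 813 CPM in *atring1a,b*. Their partners were lower, *AtBMI1B* at 4.45 and 4.77 CPM in *atbmi1a,b* against 11.8 and 16.0 in Col-0 and *AtRING1B* at 1.72 and 0.678 in *atring1a,b* against 7.83 and 14.9. Counts over whole genes do not show where in a gene the reads lie, so for *SWN*, *AtBMI1A* and *AtRING1A* they do not check the label. The paper reports that it checked the genotypes with the RNA-seq reads themselves, which was not repeated here. The 2 *swn* libraries differed by no more than sampling noise and were counted as 1 sample, which the fit assumes to vary as the libraries of the other groups do. Nothing in the labels says whether the other pairs came from separate sowings. The Methods describe biological replicates for *clf-29*, *atbmi1a,b* and the RNA-seq of *atring1a,b*, and independent lines for *LHP1*. P-values measure the spread between the libraries of a group, which for the LHP1 mutants includes that between alleles.

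Coordinates are those of TAIR10.1, whose nuclear chromosomes are those of the TAIR10 build the authors mapped to. *AP3* lies on the minus strand at chr3:20119140-20121314, *PI* on the plus strand at chr5:6828904-6831515 and *AP1* on the minus strand at chr1:25982294-25986349. *CAL* is at chr1:9099994-9103644 and *FUL* at chr5:24502434-24506269, both on the minus strand, and *LFY* at chr5:24844248-24846989 on the plus strand, where its model is marked as partial. No other annotated gene overlaps any of them. *AP1* and *CAL* are close paralogs, yet 99.5% of the 50-base words in the exons of *AP1* and 99.2% of those in *CAL* occur once in the genome, and for the other 4 genes all do. The 300 bases before the annotated start of *AP1*, *CAL*, *FUL* and *AP3* are shown, since H3K27me3 peaks reach into them, with capitals for CCANTG, the core of the LFY recognition sequence, searched on both strands. *AP1* is chr1:25986350-25986649, *CAL* chr1:9103645-9103944, *FUL* chr5:24506270-24506569 and *AP3* chr3:20121315-20121614, each read 5′ to 3′ on the minus strand:
AP1: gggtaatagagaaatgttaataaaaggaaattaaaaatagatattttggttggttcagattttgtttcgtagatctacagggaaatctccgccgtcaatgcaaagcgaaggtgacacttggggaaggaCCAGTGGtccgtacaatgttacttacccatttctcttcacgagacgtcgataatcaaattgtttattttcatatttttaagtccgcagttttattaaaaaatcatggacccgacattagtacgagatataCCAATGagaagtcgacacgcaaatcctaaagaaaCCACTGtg
CAL: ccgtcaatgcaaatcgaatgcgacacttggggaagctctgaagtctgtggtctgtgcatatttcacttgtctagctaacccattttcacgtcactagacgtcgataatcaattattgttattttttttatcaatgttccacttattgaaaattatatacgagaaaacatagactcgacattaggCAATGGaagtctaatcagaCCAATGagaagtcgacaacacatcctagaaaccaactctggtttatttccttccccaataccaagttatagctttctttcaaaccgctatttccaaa
FUL: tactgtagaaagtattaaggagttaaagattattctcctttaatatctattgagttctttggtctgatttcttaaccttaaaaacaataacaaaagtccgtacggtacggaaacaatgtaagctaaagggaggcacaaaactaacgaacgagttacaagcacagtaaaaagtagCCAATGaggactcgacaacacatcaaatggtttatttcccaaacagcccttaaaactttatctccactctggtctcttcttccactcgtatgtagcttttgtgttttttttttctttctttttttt
AP3: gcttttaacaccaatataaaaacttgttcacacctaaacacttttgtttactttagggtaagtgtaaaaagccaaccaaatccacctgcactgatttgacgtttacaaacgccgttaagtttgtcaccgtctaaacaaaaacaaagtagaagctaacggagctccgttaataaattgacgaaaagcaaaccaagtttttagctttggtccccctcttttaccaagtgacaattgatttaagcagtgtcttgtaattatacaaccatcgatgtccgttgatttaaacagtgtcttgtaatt
CCANTG was in 3 of the 6 windows, those of *AP1*, *CAL* and *FUL*, against 24.8% of 27443 windows of protein-coding genes. *AP1* had 4 matches, of which 2 on opposite strands overlap at 172 to 166 bases before the start. *AP1* and *CAL* share a run of 18 bases, ACCAATGAGAAGTCGACA, that holds a CCANTG match and lies 43 to 26 bases before *AP1* and 98 to 81 bases before *CAL*. The longest run that *CAL* and *FUL* share has 13 bases, just downstream of a match in each. The CArG box (the binding site of MADS proteins, in its perfect form) was in none of the 6 windows and in 2.92% of all, CACGTG in none and 7.09% of all, and AAACCCTA (a telobox) in none and 5.21% of all. GAGAGA was in the *PI* window alone, as 2 overlapping matches, and in 23.6% of all windows. A match or its absence says only which letters these windows hold.

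In Col-0 the 6 genes were low, and *AP3*, *AP1* and *CAL* were near the limit of detection. *AP3* had 3 counts in 1 library and 0 in the other (0.0845 and 0 CPM), and *AP1* had 1 and 0. *CAL* stood at 0.253 and 0.0935 CPM. *PI* was at 0.422 and 0.467 CPM, *LFY* at 0.732 and 0.654 CPM and *FUL*, which is also known for its role in fruit and leaf, at 1.77 and 1.59 CPM. Scaled also to exon length, as reads per kilobase and CPM unit (RPKM), the Col-0 means ran from *FUL* at 1.29 through *LFY* at 0.503, *PI* at 0.341, *CAL* at 0.140 and *AP3* at 0.0348 to *AP1* at 0.00808. *FUL* was above and *AP1* below every other gene in both libraries except that *AP3* was also at 0 in the second one, whereas *AP3* and *CAL* overlapped in their counting intervals.

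**Figure D1:**
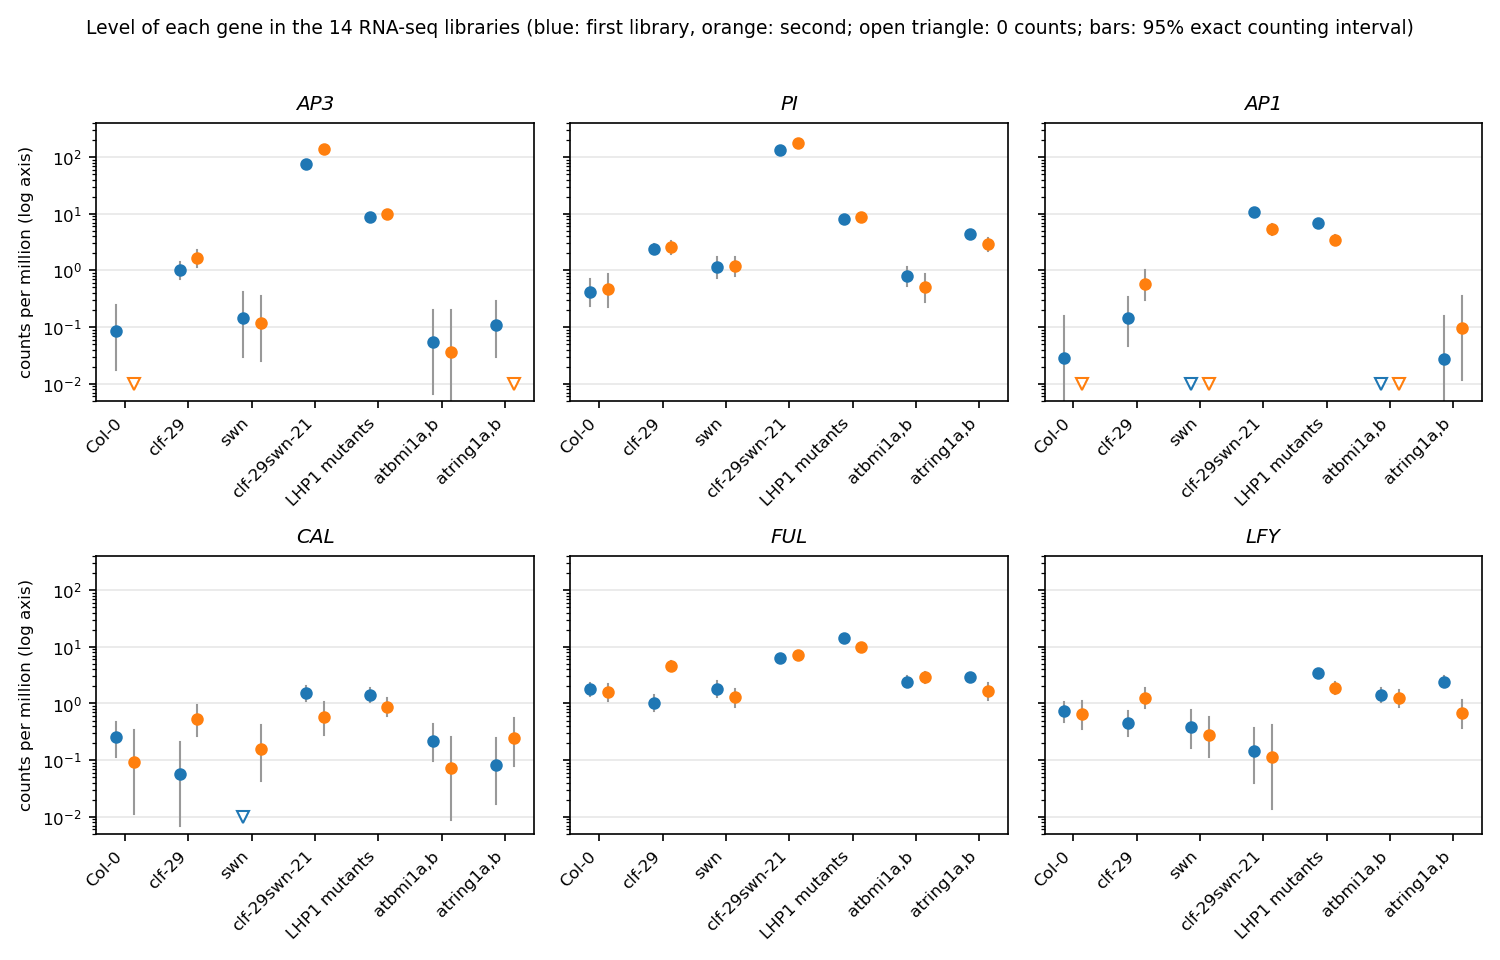
Level of each gene in CPM (log axis) in the 14 RNA-seq libraries, with the first library of a group in blue and the second in orange (tfl2-2 and lhp1-6 for the LHP1 mutants). Bars are 95% exact counting intervals and open triangles are libraries with 0 counts, placed at the foot of the axis. AP3 and PI stand at 76.7 to 175 in clf-29swn-21 and at 8.03 to 9.91 in the LHP1 mutants, and LFY is lowest in clf-29swn-21.

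In *clf-29* the B class genes and *AP1* were at low levels that lay above both Col-0 libraries. *AP3* was at 1.0 and 1.64 CPM in *clf-29* (35 and 34 counts), against 3 counts in both Col-0 libraries together, a ratio of 23.6 with a counting interval of 7.73 to 117. *PI* was at 2.41 and 2.56 CPM, 5.61 times Col-0 (3.65 to 8.98). Neither gene overlapped between the 2 groups, a separation whose share over all genes was not counted. In the fit across all genes by edgeR's quasi-likelihood test, *AP3* had a log2 fold change of 4.54 (SE 0.82, adjusted p = 0.469) and *PI* of 2.45 (SE 0.30, adjusted p = 0.116). *AP1* had 5 and 12 counts against 1, a log2 fold change of 4.02 (SE 1.22, adjusted p = 1), a call lost without the second *clf-29* library (log2 fold change 2.81). These 3 genes of the 6 passed the study's criterion, a log2 fold change past 1 and an unadjusted p under 0.05, as 1.72% of the 23060 genes tested did in that direction. Over all 6 genes the median log2 fold change was 1.57, against -0.02 over all genes. With a Benjamini-Hochberg adjusted p under 0.05 none passed in edgeR, where 0.0173% of all genes did, and *AP3* and *PI* passed in DESeq2. All comparisons with Col-0 share the same 2 Col-0 libraries.

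The meristem genes did not pass in *clf-29*, and their 2 libraries lay far apart. *FUL* was at 1.03 CPM in the first *clf-29* library and 4.58 in the second, below and above both Col-0 libraries. *LFY* was at 0.459 and 1.25 CPM and *CAL* at 0.0574 and 0.531 CPM, each again on both sides of Col-0. *FT*, the mobile flowering signal that acts upstream of these genes, was at 3.01 and 19.6 CPM in the same libraries, against 0.338 and 0.0935 in Col-0. The second library was labelled 22 °C and the first 21 °C, and the part of temperature or of plant stage in this spread was not tested.

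In the libraries labelled *swn*, *PI* alone of the 6 genes passed the study's criterion, which 1.06% of genes did upward. It was at 1.16 and 1.20 CPM, above both Col-0 libraries, with a log2 fold change of 1.4 (SE 0.35, adjusted p = 1), and no gene in the table passed after adjustment (0% in edgeR). With *swn* as 1 sample, this test takes its spread from the other groups, and the call was lost when only the *swn* and Col-0 libraries were fitted (log2 fold change 1.39). *AP3* had 3 counts in each *swn* library and *AP1* none. Set against *swn* directly, *clf-29* had higher *AP3* (log2 fold change 3.26, SE 0.87), *PI* (1.05, SE 0.34) and *AP1* by the same criterion, as 1.63% of genes did, with adjusted p = 0.948 for each in edgeR, in which 0.00434% of genes passed after adjustment. DESeq2 called *AP3* alone there after adjustment. The *PI* call was lost when only these libraries were fitted (log2 fold change 1.06). *AP1* was at least 4.65-fold higher in *clf-29* than in *swn*, where 3 counts over both libraries were set as the bound.

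The double mutant *clf-29swn-21* had by far the highest levels of both B class genes. *AP3* was at 76.7 and 140 CPM (2144 and 2417 counts), 1913 times the pooled Col-0 level with a counting interval of 654 to 9281. *PI* was at 134 and 175 CPM, 341 times Col-0 (231 to 527). The fit gave log2 fold changes of 10.73 for *AP3* (SE 0.85, adjusted p = 0.000329 in edgeR) and 8.22 for *PI* (SE 0.36, adjusted p = 4.71e-05). Per kilobase, *PI* had 118 RPKM (SD 22.3, n = 2) and *AP3* 89.2 (SD 36.8, n = 2), which overlap between the 2 libraries. In Col-0 *FUL*, *LFY* and *PI* led the order of the 6 genes, whereas here *PI* and *AP3* led it, above *FUL* at 5.18 RPKM (SD 0.41, n = 2) and *AP1* at 4.55 (SD 2.11, n = 2).

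The meristem identity genes of the double mutant split. *AP1* rose to 10.5 and 5.32 CPM, with a log2 fold change of 8.33 (SE 1.16, adjusted p = 0.00238 in edgeR) and 486 times the single Col-0 count (interval 86.7 to 19235). *LFY* fell, with 4 and 2 counts against 26 and 14 in Col-0, a ratio of 0.189 (0.0654 to 0.448) and a log2 fold change of -2.59 (SE 0.80, adjusted p = 0.0440). Thus the gene whose product activates *AP1* in the flower was lower while *AP1* was higher, in both libraries. *FUL* was at 6.37 and 7.12 CPM, above every Col-0 and *clf-29* library, and passed the study's criterion (log2 fold change 1.78, SE 0.61, adjusted p = 0.0627), a call lost without either Col-0 library (log2 fold changes 1.85 and 1.72) or without the second double mutant library (1.64). *CAL*, at 1.54 and 0.579 CPM, missed it (log2 fold change 2.32, SE 1.06, adjusted p = 0.142). Of the 6 genes, 4 passed upward, against 16% of all genes, and 1 downward, against 14.7%, and the median log2 fold change of all 6 was 5.27 against 0.01 over all genes. After adjustment 4 passed in edgeR, as 23.2% of all genes did. The *LFY* call was lost when the set of libraries, as the labels' protocols divide them, entered the fit (log2 fold change -2.56).

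Compared with *clf-29* instead of Col-0, the double mutant had higher *AP3* (log2 fold change 6.18, SE 0.64), *PI* (5.77, SE 0.31) and *AP1* (4.32, SE 0.86) and lower *LFY* (-2.83, SE 0.80), each with an adjusted p under 0.05 in edgeR. Against these 3 upward and 1 downward calls, 15.9% of all genes passed upward and 15.7% downward, and 23.9% in either direction after adjustment. For *PI* the log2 fold change of *clf-29swn-21* over *swn* exceeded that of *clf-29* over Col-0 by 4.37 (SE 0.48, adjusted p = 0.00581 in edgeR). For *AP3* it did so by 4.90 (SE 1.54, adjusted p = 0.0981). These were 2 upward calls of 6, where 9.68% of genes passed upward and 6.37% passed after adjustment in either direction. Only *clf-29swn-21* was raised on culture medium, so genotype and growth conditions cannot be told apart in this interaction. For *AP1*, which had no counts in *swn*, this interaction was fitted at 6.73 (SE 2.92, adjusted p = 0.218). Without the first Col-0 library, the only one of the pair with *AP3* counts, the *AP3* interaction was 1.11 and lost its call. The median gene had an interaction of 0.11.

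**Figure D2:**
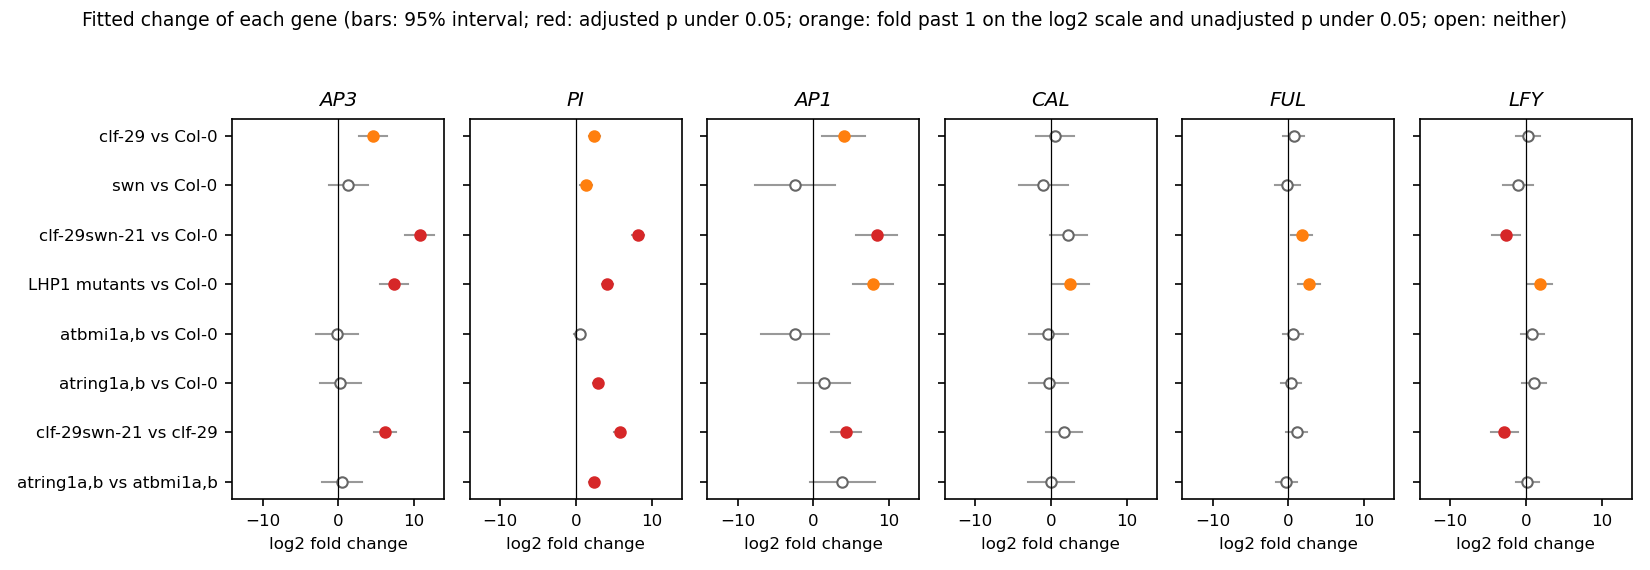
Fitted log2 fold change of each gene in 8 comparisons, with its 95% interval. Red points passed with an adjusted p under 0.05, orange points passed the unadjusted criterion and open points passed neither. PI has red points in 5 of the 8 rows, and no gene is filled in the row atbmi1a,b vs Col-0.

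Markers of other tissues moved with these changes in *clf-29swn-21*. All 12 embryo and seed markers had counts, with a summed level of 14703 to 22371 CPM against 0.28 to 7.15 in Col-0, the 9 root markers summed to 29.4 to 100 CPM against 1.58 to 5.19, and the 5 leaf markers to 1906 to 3340 against 8660 to 12125. Of 10 flower organ markers 6 had counts, with a sum of 17.5 to 27.3 CPM against 0.374 to 5.49 in Col-0, while the stamen genes *A9*, *DYT1* and *MS1* and the terpene synthase gene *TPS21* were at 0. Among these, *CRC*, a carpel and nectary gene, rose by 7.20 on the log2 scale (SE 1.21, adjusted p = 0.00363 in edgeR). At 15.9 and 25.1 CPM it made up most of that sum in both libraries. Of the others with counts, *AMS*, *SPL/NZZ* and *INO* were above both Col-0 libraries and *MYB21* was below both. The highest of these levels was 0.895 CPM, of *SPL/NZZ*, and how many of all genes separated so was not counted. *MYB24* was at 0.107 and 0 CPM against 5.07 and 0 in Col-0. By the study's criterion 12 embryo and seed markers, 8 root markers and 2 of the 6 flower organ markers tested passed upward, where 16% of all genes did. All 5 leaf markers passed downward, where 14.7% of all genes did. The part of this makeup in the levels of *AP3*, *PI*, *AP1* and *LFY* was not tested, and in bulk tissue fewer cells of a type and less RNA per cell cannot be told apart.

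**Figure D3:**
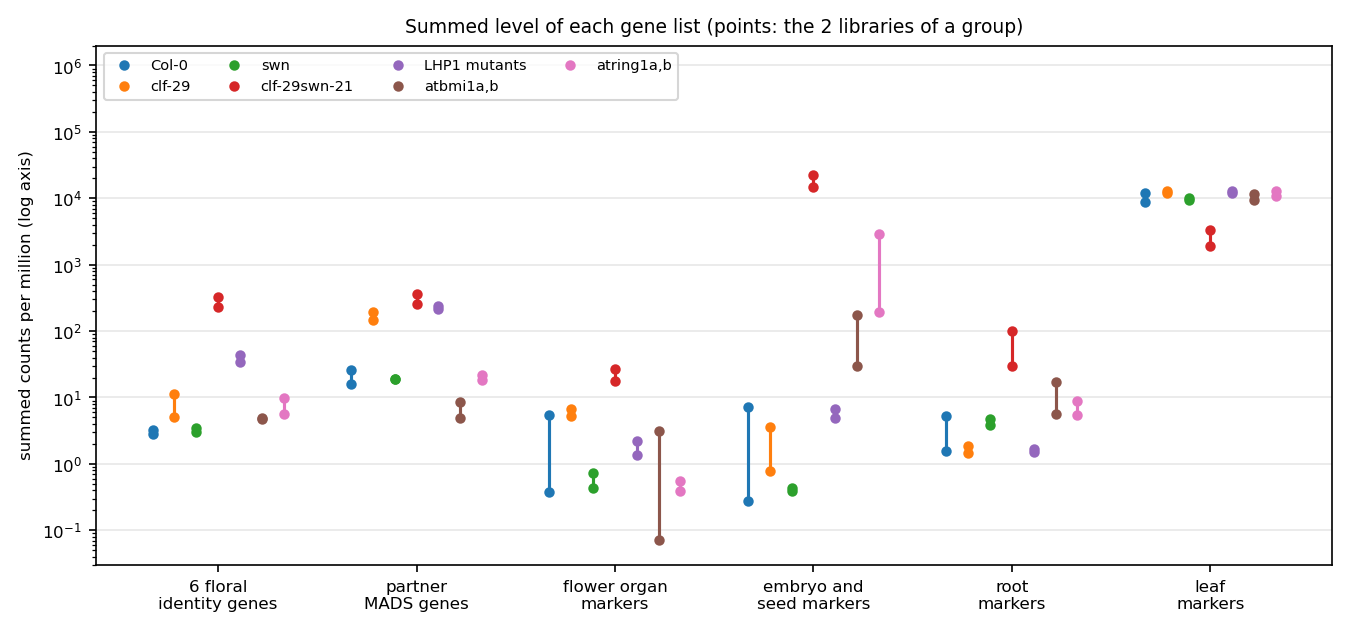
Summed CPM (log axis) of the 6 genes and of 5 other lists in each group, with a point for each of the 2 libraries of a group. In clf-29swn-21 the 6 genes sum to 229 to 328 and the embryo and seed markers to 14703 to 22371, whereas in the LHP1 mutants the 6 genes sum to 34.6 to 43.1 and the embryo and seed markers stay within 4.88 to 6.70.

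In the LHP1 mutants all 6 genes passed the study's criterion upward, where 1.79% of all genes did. *AP3* was at 8.87 CPM in *tfl2-2* and 9.91 in *lhp1-6*, with a log2 fold change of 7.35 (SE 0.80, adjusted p = 0.0319 in edgeR) and 178 times Col-0 (60.6 to 865). *PI* was at 8.03 and 8.73 CPM, with a log2 fold change of 4.16 (SE 0.31, adjusted p = 0.00934). Both genes rose, and both alleles stood far above the Col-0 libraries.

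*AP1* was at 7.00 CPM in *tfl2-2* and 3.47 in *lhp1-6*, 299 times the single Col-0 count (53.4 to 11847), with a log2 fold change of 7.89 (SE 1.15, adjusted p = 0.122 in edgeR). *FUL* was at 14.3 and 9.76 CPM, its highest level in any group, with a log2 fold change of 2.76 (SE 0.63, adjusted p = 0.411). *LFY* was at 3.41 and 1.88 CPM (log2 fold change 1.85, SE 0.68, adjusted p = 1) and *CAL* at 1.43 and 0.882 CPM (2.58, SE 1.06, adjusted p = 1). All 4 meristem genes were above both Col-0 libraries in both alleles and higher in *tfl2-2* than in *lhp1-6*. The share of all genes that separate in this way was not counted. The median log2 fold change of the 6 genes was 3.46, against -0.02 over all genes. With an adjusted p under 0.05, 2 of the 6 genes passed in edgeR, as 0.039% of all genes did, and *AP1* and *FUL* joined them in DESeq2. *CAL* lost its call when any 1 of the 4 libraries was left out (log2 fold change from 2.11 to 3.49) and *LFY* when either Col-0 library or *tfl2-2* was (from 1.38 to 1.92).

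The order of the 6 genes in the LHP1 mutants was not that of the double mutant. Mean RPKM were 9.24 for *FUL* (SD 2.47), 7.73 for *AP3* (SD 0.61), 6.42 for *PI* (SD 0.38), 3.0 for *AP1* (SD 1.43), 1.92 for *LFY* (SD 0.79) and 0.936 for *CAL* (SD 0.32), each with n = 2. *FUL* and *AP3* overlapped, as did *AP1* and *LFY*. Against *clf-29*, 5 of the 6 genes passed the study's criterion upward in the LHP1 mutants, where 0.503% of all genes did, with log2 fold changes from 1.61 for *LFY* to 3.87 for *AP1*. The *LFY* call was lost without the first *clf-29* library (log2 fold change 1.05) or *tfl2-2* (1.13), with the replicate block or temperature as a term (1.497 in each), with the label set (1.52) and with only the libraries compared (1.60). No adjusted p was under 0.05 in edgeR, where 0.00434% of genes passed so, and *AP3*, *PI* and *AP1* passed in DESeq2. Embryo and seed markers summed to 4.88 to 6.70 CPM, inside the Col-0 range, and the 5 leaf markers to 12011 to 12958 CPM.

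Mutants of the PRC1 RING finger genes left most of these genes low. In *atbmi1a,b* none of the 6 passed the study's criterion or an unadjusted p under 0.05 in edgeR, none passed in DESeq2, while 4.95% of all genes passed in either direction and 0.525% after adjustment. *AP3* had 2 and 1 counts and *AP1* none, *PI* was at 0.801 and 0.505 CPM, *CAL* at 0.221 and 0.0722 CPM, *FUL* at 2.43 and 2.92 CPM and *LFY* at 1.41 and 1.23 CPM. *PI*, *FUL* and *LFY* were above both Col-0 libraries in both, and how many of all genes were so was not counted. The 95% intervals of their log2 fold changes reached from -0.21 to 1.22, from -0.76 to 1.98 and from -0.68 to 2.39.

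In *atring1a,b* *PI* alone passed, where 4.61% of genes passed upward and 0.711% in either direction after adjustment. It rose to 4.40 and 2.90 CPM, 8.78 times Col-0 (5.79 to 13.9), with a log2 fold change of 2.94 (SE 0.30, adjusted p = 0.0072 in edgeR), and it was also higher than in *atbmi1a,b* (log2 fold change 2.44, SE 0.29, adjusted p = 0.0392), as 3.12% of genes were by the study's criterion and 0.065% differed after adjustment. Its partner *AP3* had 4 and 0 counts, which overlaps the 3 and 0 of Col-0, with a log2 fold change of 0.28 and a 95% interval of -2.37 to 2.92. *LFY* was at 2.44 CPM in the first library and 0.678 in the second, inside the Col-0 range, and passed together with *PI* when that second library was left out. *FUL* was at 2.91 and 1.65 CPM, *CAL* at 0.0831 and 0.242 CPM and *AP1* had 1 and 2 counts. The embryo and seed markers gave sums of 192 to 2940 CPM here, against 29.6 to 174 for *atbmi1a,b*, and their part in the *PI* level was not tested.

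The partner MADS genes, whose proteins bind those of the 6 genes or share their targets, moved with them in some groups. Of 9 such genes, 6 passed the study's criterion upward in *clf-29*, 8 in the LHP1 mutants, 8 in *clf-29swn-21*, 3 in *atring1a,b* and none in *swn* or *atbmi1a,b*, where *SEP3* and *SEP4* passed downward. Over all genes 1.72%, 1.79%, 16% and 4.61% passed upward in the first 4 of these, and 4.95% in either direction in *atbmi1a,b*. Their median log2 fold change was 3.74 in *clf-29* and 6.08 in the LHP1 mutants (5.69 with *STK*, at 0 in Col-0, set at its lower bound), against -0.02 over all genes in both. In *clf-29*, *AG*, the C class gene of stamens and carpels, rose by 7.98 on the log2 scale (SE 0.61, adjusted p = 0.00622 in edgeR) to 53.2 and 68.6 CPM, and *SEP3*, whose protein joins most floral MADS complexes, by 6.13 (SE 0.61, adjusted p = 0.0277). *AG* was thus far above *AP3* at 1.0 and 1.64 CPM in the same libraries, whereas in *clf-29swn-21* *AG* was at 17.2 and 28.9 CPM and *AP3* at 76.7 and 140. In *clf-29swn-21* *STK*, an ovule gene with no Col-0 counts, was at 23.5 and 27.03 CPM, at least 471-fold higher, *SEP2* and *SEP1* rose by 10.46 and 7.36 on the log2 scale, and *SEP4* was the 1 gene of the list called downward.

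Of the 14 upstream regulators 12 were tested. In *clf-29* 2 passed upward and none downward, *FT* at a log2 fold change of 5.57 (SE 1.30, adjusted p = 1 in edgeR) and *SPL4*, and in the LHP1 mutants 2 passed upward, *FT* at 5.37 (SE 1.29, adjusted p = 0.446) and *SPL5*. Over all genes 1.72% passed upward in *clf-29* and 1.79% in the LHP1 mutants. In *clf-29swn-21* 5 passed upward, where 16% of all genes did, and 2 downward, where 14.7% did. There *SOC1*, which activates *LFY*, fell by 2.19 on the log2 scale (SE 0.31, adjusted p = 0.00191), *FD*, the partner of FT protein, by 2.48 (adjusted p = 0.0312), and *SPL4* rose by 1.83 (adjusted p = 0.0174). *AGL24*, another activator of *LFY*, was higher, at 58.2 and 84.8 CPM against 28.3 and 12.2 in Col-0 (adjusted p = 0.0546 in edgeR). *LMI1* was at 5.05 and 7.76 CPM against 2.59 and 0.795 (adjusted p = 0.111). Both were past the study's criterion upward. In *atbmi1a,b* no upstream regulator passed.

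Of the 9 repressors that act on these genes, none passed in *clf-29* and 1 (*TFL1*, upward) in the LHP1 mutants, where 1.79% of all genes passed upward. In *clf-29swn-21* 4 passed upward and 1 downward, where 16% and 14.7% of all genes did. *SUP*, which limits *AP3* to its domain in the flower, had no Col-0 counts and stood at 1.11 and 1.74 CPM, at least 25.6-fold higher. *RBE*, a repressor of *AG* in petals, rose by 5.95 (adjusted p = 0.00546 in edgeR) and *FLC*, a repressor of flowering, by 2.62 (adjusted p = 0.0239) on the log2 scale, while *SVP* was called downward. Of 6 genes known as targets of AP3 and PI, none passed in *clf-29* or the LHP1 mutants, and 4 were lower and 1 higher in *clf-29swn-21*. *BNQ1*, *GNL* and *GNC*, which AP3 and PI repress in flowers, fell there by 4.04 (adjusted p = 0.00408), 1.28 (adjusted p = 0.00432) and 1.24 (adjusted p = 0.00802). *BNQ3*, of the same family as *BNQ1*, went the other way, with no Col-0 counts and 2.54 and 0.232 CPM in the double mutant, at least 31.5-fold higher (adjusted p = 0.0958). *NAP*, which AP3 and PI activate, was at 2.76 and 5.85 CPM against 4.70 and 40.9 in Col-0, which overlap, and passed the study's criterion downward (adjusted p = 0.112). The leaf markers fell in the same libraries, and *GNC* and *GNL* are also leaf genes.

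Across the 14 libraries the levels of the 5 MADS genes were positively correlated with each other, and those of *LFY* less so or not at all. Pearson's r of log2(CPM + 0.5) was 0.948 between *AP3* and *PI*, 0.942 between *AP3* and *AP1* and 0.931 between *AP1* and *CAL*, and lowest among these genes between *PI* and *FUL* (0.650) and *PI* and *CAL* (0.705). For *LFY* it ran from -0.293 with *PI* and -0.239 with *AP3* over -0.00807 with *AP1* and 0.151 with *CAL* to 0.399 with *FUL*, and *LFY* was higher together with the other 5 in the LHP1 mutants. The libraries share genotypes, so these values describe the set and carry no test. Among the 23060 genes tested, those most like *AP3* were *GATA13* (r = 0.988), *SVL3* (0.984) and the MADS gene *AGL71* (0.976), and those most like *PI* were *ENDO3* (0.979), *LTP4* (0.970) and AT5G45580 (0.970). For *AP1* they were AT4G05470 (0.972), *AGL17* (0.962) and *GATA13* (0.962), for *CAL* they were *AP1*, *GSL09* (0.885) and AT1G52120 (0.885), for *FUL* AT4G05475 (0.886), *AP1* (0.874) and AT4G28370 (0.873), and for *LFY* AT3G06640 (0.885), AT5G11250 (0.857) and AT5G10320 (0.853).

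H3K27me3 lay over all 6 genes in the first Col-0 list. A gene was counted as marked where a peak shared at least 1 bp with the stretch from 1000 bp upstream of its start to its end, which held for 21.4% of 32835 genes in that list. The *AP3* peak was chr3:20118521-20121440, which covers the whole gene and 126 bp before it. Its score, as the authors deposited it, was 676, above that of 98.0% of the list. The *PI* peak, chr5:6828220-6831574, had a score of 614 and covered the gene and 684 bp upstream. *AP1* (chr1:25981556-25986714, score 152) and *CAL* (chr1:9099978-9107420, score 154) were covered in full by peaks with a score below the list's median of 165.

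*FUL* was covered over 99.1% of its length by 2 adjacent peaks, chr5:24502135-24503601 and chr5:24503638-24506504. The *LFY* peak, chr5:24842294-24845518, differed in shape from the others, since it covered all of the 1000 bp upstream but 46.4% of the gene. The *CAL* peak ran on through the intergenic DNA and over the neighbouring gene AT1G26320, which starts 1393 bp away on the other strand.

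The number of the 6 genes with a peak divided the lists by the labelled temperature. In the 5 lists labelled 21 °C, that of *tfl2-2* and the first list of each other genotype, all 6 genes had a peak. In the 5 lists labelled 22 °C the number was 1 in Col-0, 3 in *clf-29*, 4 in *lhp1-6*, 3 in *atbmi1a,b* and 1 in *atring1a,b*. Over all genes the share with a peak in the 21 °C lists was 35.9% for *atring1a,b*, 26.8% for *tfl2-2*, 21.3% for *clf-29* and 17.8% for *atbmi1a,b*. In the 22 °C lists it was 15.6% in Col-0, 22.7% in *clf-29*, 23.4% in *lhp1-6*, 19.1% in *atbmi1a,b* and 10.4% in *atring1a,b*. Within either temperature set no mutant list had fewer of the 6 genes with any peak than the Col-0 list did. At 22 °C, with 1 gene in Col-0, there was little room for fewer. The labels' protocols also divide the 22 °C lists of *clf-29* and *atbmi1a,b* from that of Col-0. The covered share was lower at some genes, most of all at *CAL* in *clf-29*. With 50% of the region covered the first *clf-29* list marked 5 genes against 6 in Col-0. The Methods give 22 °C alone. Labelled temperature cannot be told apart from the other ways in which these sets differ, among them the layout of the peak files. The control libraries without antibody are also all labelled 21 °C. H3K27me3 of *swn* and *clf-29swn-21* was not analysed here.

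**Figure D4:**
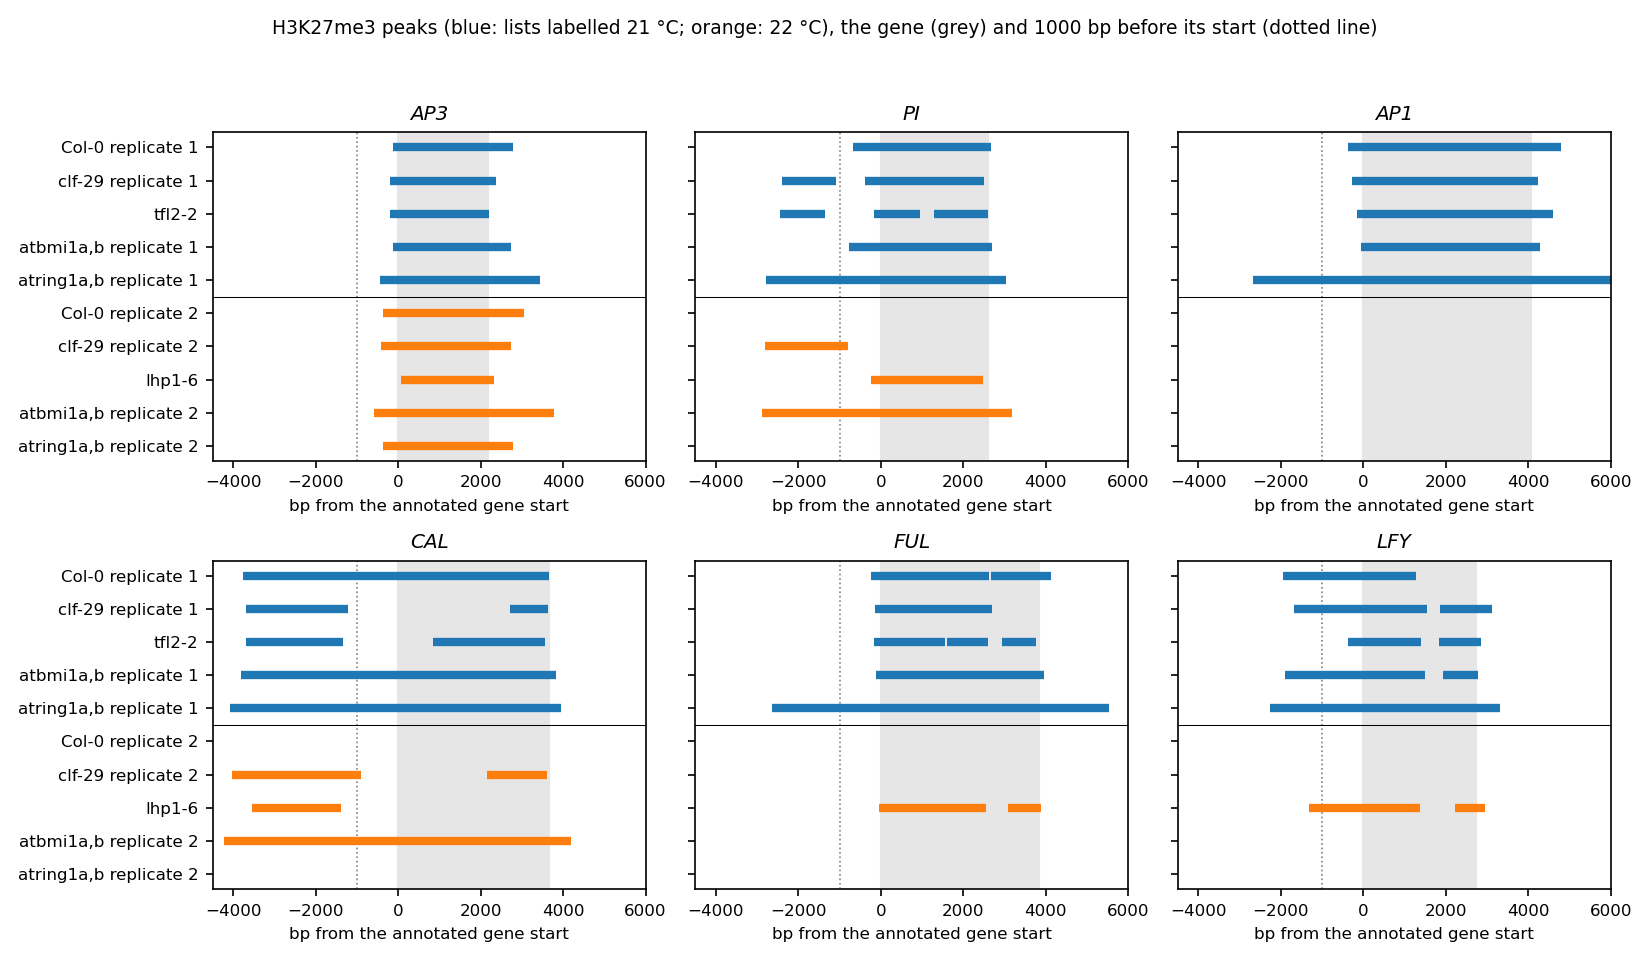
H3K27me3 peaks around each gene in the 10 lists, by distance in bp from the annotated start on the gene's strand, with the gene in grey and the dotted line 1000 bp before its start. Lists labelled 21 °C are blue and lists labelled 22 °C orange. AP3 is marked in all 10 lists, AP1 in 5, and over CAL the clf-29 and tfl2-2 peaks leave the start of the gene bare.

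*AP3* was the one gene marked in every list, with 96.8% to 100% of its length covered in each. *PI* was marked in 8 lists, *CAL* in 7, *FUL* and *LFY* in 6 and *AP1* in 5. The second Col-0 list, with 2983 peaks against 5055 in the first, had a peak at *AP3* alone. It also lacked a peak at 41.3% of the 7029 genes marked in the first list, and 5 of the 6 genes were among these. Of the same 7029 genes, 18.4% and 25.8% lacked a peak in the *clf-29* lists, 29.9% and 42.3% in those of *atbmi1a,b* and 3% and 57.9% in those of *atring1a,b*. The *AP3* peak was thus called in the mutants in which *AP3* was higher, at scores of 794 and 224 in *clf-29*, 721 in *tfl2-2* and 552 in *lhp1-6*, which rank within a list and are not compared between lists.

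The *LHP1* alleles differed in *AP1* and *CAL*. In *tfl2-2* all 6 genes had peaks, while *lhp1-6* had none over *AP1* or *CAL*, where 14.1% of the genes marked in the first Col-0 list had none, against 10% in *tfl2-2*. The *lhp1-6* list is labelled 22 °C and *tfl2-2* 21 °C, and allele and set cannot be told apart. The Col-0 list labelled 22 °C had no peak at either gene, and *AP1* had none in any list labelled 22 °C. *AP1* and *CAL* transcripts were lower in *lhp1-6* than in *tfl2-2*, where the mark was called. The *lhp1-6* RNA library is labelled 21 °C, unlike its peak list.

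Over *CAL* the peaks of *clf-29* and the *LHP1* alleles had another shape than those of Col-0 and the PRC1 mutants. Peaks covered the whole of *CAL* and the 1000 bp before it in the first Col-0 list, in both *atbmi1a,b* lists and in the first *atring1a,b* list, each as 1 peak of 7443 to 8410 bp that also spans AT1G26320. In *clf-29* a peak of 902 bp in the first list and of 1457 bp in the second lay over the 3′ end of *CAL*, covering 24.7% and 39.9% of the gene, and a second peak lay over AT1G26320. In *tfl2-2* 74.7% of the gene was covered, from 835 bp downstream of the start, and *lhp1-6* had the AT1G26320 peak alone.

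A drop in covered share from the first Col-0 list at least as large as that of *CAL* was seen at 1.89% of marked genes in the first *clf-29* list, 8.99% in the second, 4.99% in *tfl2-2* and 0.398% in *lhp1-6*. The second Col-0 and *atring1a,b* lists had no peak at *CAL* or at AT1G26320, so the shape rests on 1 Col-0 list. *CAL* transcripts stayed within 0.0574 to 0.531 CPM in *clf-29* and reached 1.43 and 0.882 CPM in the *LHP1* alleles.

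*PI* showed a separate upstream peak in some mutants. In the first *clf-29* list it lay at chr5:6826517-6827829, in the second at chr5:6826083-6828098 and in *tfl2-2* at chr5:6826460-6827560, upstream of the 1000 bp window in the first and the last of these. In the second *clf-29* list this was the one *PI* peak, it reached 195 bp into the 1000 bp window, and the gene itself had none. The second *atbmi1a,b* and the first *atring1a,b* lists each had 1 peak over both the upstream stretch and the gene. *LFY* had a second peak over its 3′ part in the first *clf-29* list, in *tfl2-2*, in *lhp1-6* and in the first *atbmi1a,b* list, where 69.3% to 88.5% of the gene was covered. In the first *atring1a,b* list every one of the 6 genes was covered in full by a peak at a score of 3100, but that list covers 26.0 Mb against 10.8 Mb in the first Col-0 list, and 69.3% of its peaks score lower. The shared score of 3100 does not rank the 6 genes.

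The mark and the transcripts thus did not divide the 6 genes in the same way. In *clf-29* and the *LHP1* alleles *AP3* was marked in all 4 lists while its transcript was at 1.0 to 9.91 CPM, and in *atbmi1a,b* it was marked in both lists while it had 1 or 2 counts. A peak list says that a region was enriched over background and not by how much, and a tissue can hold marked and unmarked cells side by side.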

How the data were processed

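RNA-seq and H3K27me3 ChIP-seq of *Arabidopsis* seedlings were analysed from the authors' files. The 14 files of read counts per gene were deposited by the authors, who mapped reads to TAIR10 with TopHat and counted them with HTSeq (strand setting not given in the sources used here). The 10 peak lists were also deposited by the authors, who mapped with BWA and called peaks per library with MACS against a library made without antibody. The score the authors deposited with each peak is used here only to rank peaks within a list, and ChIP depth is unknown. The 5 control libraries without antibody were not analysed here, and neither was a table of the authors' own fold changes and P values between single libraries.

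Reads on no gene or on several (2.66% to 3.43% of a library) were left out. Genes passing filterByExpr (23060 of 33602) were fitted with edgeR 4.0.16 (robust quasi-likelihood test, TMM, Benjamini-Hochberg adjustment) in R 4.3.3, with 13 libraries in 1 model. The 2 *swn* libraries were summed, since 5.22% of their genes with 10 to 1000 counts differed beyond the limits that 5% exceed by sampling alone, so the planned fit of 14 libraries was run as an alternative chosen after seeing the data. DESeq2 1.42.0 was another alternative. Log2 fold changes are on edgeR's fitted scale. Intervals are exact at 95% and the floor for genes at 0 was 3 counts over a group. On data simulated for *clf-29* against Col-0 (22553 genes), 80.9% of genes changed by a log2 fold of 2 passed the study's criterion and 21.1% passed after adjustment, with 739 false calls (3.31% of unchanged genes) and 2 after adjustment. Of the gene identifiers 97.7% were found in the annotation of TAIR10.1, the source of coordinates and sequences. Promoter windows are 300 bp long.

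The 6 genes and the other lists were chosen with earlier results of these data known. From each other list, up to 3 genes per comparison with an adjusted p under 0.05 and the largest changes were named, and the 3 genes most alike to each of the 6. *FT*, *SPL4*, *SPL5*, *TFL1*, *SVP*, *AGL24*, *LMI1*, *BNQ3*, *NAP* and the *SEP3* and *SEP4* of *atbmi1a,b*, and the levels of *AG* and *FT*, were named after their values were seen. Alternatives were another tool, RLE scaling, no filter, a replicate block, temperature or library set as a term, only the libraries compared, each library left out, and for peaks other regions, cover and score limits.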

Additional observations from a re-analysis of the deposited data

Results flagged for a closer look

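For *PI* and *AP3* the log2 fold change between *clf-29swn-21* and *swn* was larger than that between *clf-29* and Col-0, as the interaction term of the edgeR fit tested. The difference was 4.37 for *PI* (SE 0.48, adjusted p = 0.00581) and 4.90 for *AP3* (SE 1.54, adjusted p = 0.0981), and without the first Col-0 library the value for *AP3* was 1.11 and missed the study's criterion. Embryo, seed and root markers were also higher in *clf-29swn-21*, and their part in these differences was not tested. Only *clf-29swn-21* was raised on culture medium, so genotype and growth conditions cannot be told apart here.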

How the results depend on the processing

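With an adjusted p under 0.05 in edgeR, the number of the 6 genes that passed was 0 for *clf-29*, 0 for *swn* and 2 for the LHP1 mutants against Col-0, 0 for *clf-29* against *swn*, 0 for the LHP1 mutants against *clf-29* and 1 for the interaction. When only the libraries compared were fitted, 0 passed in *swn*. With 1 library left out at a time, the number ranged from 1 to 2 for *atring1a,b* (*LFY* joined without its second library) and from 1 to 5 for the interaction (1 without the first Col-0 library, 5 without the second *clf-29* library). The number of genes with a peak fell to 1 in the second *clf-29* list where peaks had to cover 50% of the region, and where a score over the list's median was required it was 1 there, 3 in *tfl2-2* and 1 in the second *atbmi1a,b* list. The cause was not tested.

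Of 31 pairs of a gene and a comparison that passed the study's criterion, 22 passed under every alternative and none changed sign in 388 refitted values. With the replicate block 3, 1, 5 and 6 genes passed in *clf-29*, *swn*, *clf-29swn-21* and the LHP1 mutants against Col-0, and 4 in the LHP1 mutants against *clf-29*, where *LFY* lost its call. Same-numbered libraries deviated together among the 4 genotypes other than *swn*, *clf-29swn-21* and the LHP1 mutants (r from 0.272 to 0.824 over 6 pairs of genotypes) but not in the other 9 pairs (r from -0.139 to 0.0668), so the numbers were not taken to pair the samples. With the numbers of the double mutant crossed, a choice made after seeing the data, 5 genes passed against Col-0 and 4 against *clf-29*. Genes at under 10 counts in Col-0, such as *AP3* and *AP1*, limit every fold against it.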
